A study of Mus musculus with 4 samples.

Results

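The genes described here are the 7 listed beta-defensins of a run on mouse chromosome 8 near 21.8 Mb, *Defb1*, *Defb2*, *Defb10*, *Defb9*, *Defb11*, *Defb15* and *Defb13*, out of 16892 genes in the deposited matrix. They were chosen by their names and position, with earlier results of these data known. The single-cell RNA-Seq libraries were made on the 10X platform from the caput, corpus and cauda epididymis and from the vas deferens of adult male FVB/NJ mice aged 10 to 12 weeks, with no treatment or genotype difference between the groups. Each region gave 1 library from a pool of 8 pieces of tissue from the same 4 mice, so the 4 groups have 1 sample each and no test between them was possible. The study asked which genes distinguish these regions and the cell types within them. It varied the dissection margins slightly between pieces, which limits each library as a model of its region.

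Beta-defensins are small secreted cationic peptides folded around conserved disulfide bonds, and many of them kill bacteria by disturbing their membranes. Rodent genomes hold them in runs of neighboring genes, and the epididymal epithelium makes an unusually large set, some of which coat the sperm surface during maturation. In this epithelium, principal cells are the main secretory cells, basal cells lie against the basement membrane, and clear cells acidify the lumen with a proton pump.

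In GRCm38, the run spans chr8:21776555-21948622, which is 172 kb and holds 10 annotated genes, 9 of them protein coding. Each member has 2 annotated exons. *Defb1* lies at chr8:21776555-21795185 and *Defb2* at chr8:21839926-21843482, both on the plus strand. *Defb10* lies at chr8:21858901-21862011 on the plus strand. *Defb9* (chr8:21881713-21885434), *Defb11* (chr8:21905374-21906432) and *Defb15* (chr8:21929813-21932710) follow on the minus strand. *Defb13* closes the run at chr8:21946755-21948622 on the plus strand. The matrix also has a row for the protein-coding neighbors *Defb50*, between *Defb1* and *Defb2*, and *Defb35*, between *Defb15* and *Defb13*. The pseudogene *Gm15316* was not analysed here.

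The RefSeq table of GRCm38.p6 held promoter windows for 5 of the 7 members, *Defb10*, *Defb9*, *Defb11*, *Defb15* and *Defb13*. The 150 bases before the start of *Defb10* (chr8:21858751-21858900, plus strand), *Defb9* (chr8:21885435-21885584, minus strand) and *Defb11* (chr8:21906433-21906582, minus strand) are shown because these genes were all highest in the cauda. Capitals mark stretches of at least 12 bases that all 3 windows hold.
Defb10: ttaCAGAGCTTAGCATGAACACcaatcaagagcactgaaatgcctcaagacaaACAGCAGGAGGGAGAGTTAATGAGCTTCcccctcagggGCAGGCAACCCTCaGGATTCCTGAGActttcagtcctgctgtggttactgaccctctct
Defb9: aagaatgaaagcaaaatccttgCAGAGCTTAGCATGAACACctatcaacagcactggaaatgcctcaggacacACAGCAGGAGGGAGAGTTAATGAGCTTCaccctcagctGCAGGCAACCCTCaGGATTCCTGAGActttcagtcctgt
Defb11: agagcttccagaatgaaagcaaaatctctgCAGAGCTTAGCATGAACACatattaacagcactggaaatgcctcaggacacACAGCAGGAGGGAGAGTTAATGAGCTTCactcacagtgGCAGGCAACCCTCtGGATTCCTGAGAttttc

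In each of these windows 72 of 150 bases (48%) are in capitals. The longest shared stretch has 28 bases and ends 70 bases before the start of *Defb10*, 50 before that of *Defb9* and 42 before that of *Defb11*. Of the 32851 promoters in the table, 3 hold it on either strand. Aligned end to end, the windows of *Defb9* and *Defb11* are identical in 83.5% of alignment columns, those of *Defb10* and *Defb9* in 71.8%, and those of *Defb10* and *Defb11* in 60.7%.

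The windows of *Defb15* (chr8:21932711-21932860, minus strand) and *Defb13* (chr8:21946605-21946754, plus strand) are shown because these genes had their highest level in the caput, which for *Defb13* did not differ from the corpus beyond counting error. Capitals again mark stretches of at least 12 bases that both hold.
Defb15: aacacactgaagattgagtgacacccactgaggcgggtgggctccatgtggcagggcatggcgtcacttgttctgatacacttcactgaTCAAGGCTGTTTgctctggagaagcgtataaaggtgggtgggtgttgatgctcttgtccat
Defb13: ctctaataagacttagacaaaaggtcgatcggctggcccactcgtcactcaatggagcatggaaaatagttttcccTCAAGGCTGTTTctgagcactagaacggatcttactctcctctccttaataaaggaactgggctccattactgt

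These 2 windows share 1 stretch of 12 bases, which 6 of the 32851 promoters hold, and are identical in 45.7% of alignment columns. Identity between either of them and the *Defb10*, *Defb9* or *Defb11* window ranged from 42.5% to 47.2%. In the 250 bases before the start, on both strands, the TATA box TATAAA occurred in 1 of the 5 promoters, that of *Defb15*, 35 bases before the start, against 12.4% of all promoters in the table. The androgen receptor motif AGAACA occurred in 3 of the 5 promoters (*Defb10*, *Defb11* and *Defb15*), against 16.1% of all promoters. The C/EBP motif TTNNGCAA occurred in that of *Defb10* alone, against 9.56%. These motifs do not overlap one another in the 5 windows. The sequences are those of the reference assembly, which was made from a strain other than FVB/NJ.

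Sequence shared between members can bear on their counts, because the authors left out reads that align to several places. In the annotated transcripts, stretches of 50 bases shared with another gene made up 20.7% of the stretches in *Defb2*, 16.9% in *Defb10*, 9.96% in *Defb9* and 19.8% in *Defb11*, and the other genes were in each case the remaining 3 of these 4. All of these stretches lie within the first 102 bases of the transcripts, and the last 203 to 219 bases of each hold none. The 4 transcripts have only 298 to 317 bases, and where in them the reads lay was not examined. For *Defb1*, *Defb15* and *Defb13* no stretch was shared with any annotated gene. How many reads were left out for *Defb2*, *Defb10*, *Defb9* and *Defb11* is not given in the sources used here.

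The 4 libraries held 1433 to 3506 cells and 4408989 to 10744928 unique molecular identifiers (UMIs), 8880 cells in all with a median of 1858 UMIs per cell. The authors' deposited annotation, itself built from the same counts, gave 7 cell types and 15 subclusters of principal cells. The labels of the epithelial types held against their markers, with 7 of 8 principal markers, 3 of 4 basal markers and 5 of 5 clear markers highest in their own type; the exceptions were *Cd9* and *Itga6*. Between libraries, 43 cell barcodes were shared by 86 cells. Levels are UMIs of a gene per 1000000 UMIs of a group of cells (UPM), with exact Poisson 95% intervals in parentheses that cover counting error only. Because a 3′ library counts 1 tag per captured molecule, levels of different genes have no term for length. Calling a gene for a group took 20 UMIs or more in that group and a level 4-fold or more above each of the others, where groups under 3 UMIs were set to 3 UMIs.

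Of the 7 members, 6 were highest in principal cells and *Defb1* was highest in clear cells. For *Defb2*, principal cells had 2085 UPM (2056 to 2114), which made it the 62nd gene of the matrix by level there. *Defb11* followed with 610 UPM, *Defb9* with 335 UPM, *Defb15* with 180 UPM, *Defb10* with 129 UPM and *Defb13* with 19.0 UPM. Principal cells held between 89.7% (*Defb13*) and 97.5% (*Defb15*) of the UMIs of each of these 6 genes. Clear cells came next for each of these 6, at ratios of 18.6 for *Defb2* (15.9 to 21.8), 8.59 for *Defb10* (5.65 to 13.8), 25.7 for *Defb9* (16.5 to 42.8), 21.8 for *Defb11* (16.02 to 30.4), 20.3 for *Defb15* (11.8 to 38.1) and 9.27 for *Defb13* (3.12 to 45.4), of which clear cells had 3 UMIs.

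By the 4-fold rule, 5 of the 7 members were called, all for principal cells, where 2.21% of the 11352 genes tested were called for principal cells and 11.8% for any type. *Defb13* was not called, because immune cells had 0 UMIs of it, which allows up to 5.15 UPM, and its level in principal cells was at least 3.69-fold higher than that limit. The share of all genes called was not counted with a library left out. Without the cauda library 3 members were called, *Defb9*, *Defb11* and *Defb15*, and *Defb2* fell short of the rule at 1.95 on the log2 scale. Without the caput library *Defb15* fell short at 0.62 on the log2 scale, and *Defb1* was called for clear cells at 2.03.

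*Defb1*, the constitutively made epithelial beta-defensin, had another distribution over cell types. Its level was 1721 UPM in clear cells (1654 to 1789), 665 UPM in basal cells (645 to 685) and 63.0 UPM in principal cells (58.1 to 68.3). Clear cells were 2.59-fold above basal cells (2.46 to 2.72) and 27.3-fold above principal cells (25.0 to 29.9). Because basal cells were many, they held 55.5% of its 7411 UMIs, clear cells 33.9% and principal cells 8.14%. It was the 76th gene by level in clear cells but was not called, as basal cells were within 4-fold.

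The neighbor *Defb50* had 96 UMIs in all, of which 77.1% were in clear cells, at 50.6 UPM (39.8 to 63.6) against 1.46 UPM in basal and 0.941 UPM in principal cells. It was called for clear cells, where 1.49% of the genes tested were called. *Defb35* had 4 UMIs in the whole matrix, too few for a comparison. Along the run, the order was thus 2 genes highest in clear cells, then 4 highest in the principal cells of the cauda, then *Defb15* and *Defb13*, highest in the principal cells of the caput, with *Defb35* between them. For *Defb13* the caput and corpus did not differ beyond counting error.

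**Figure D1:**
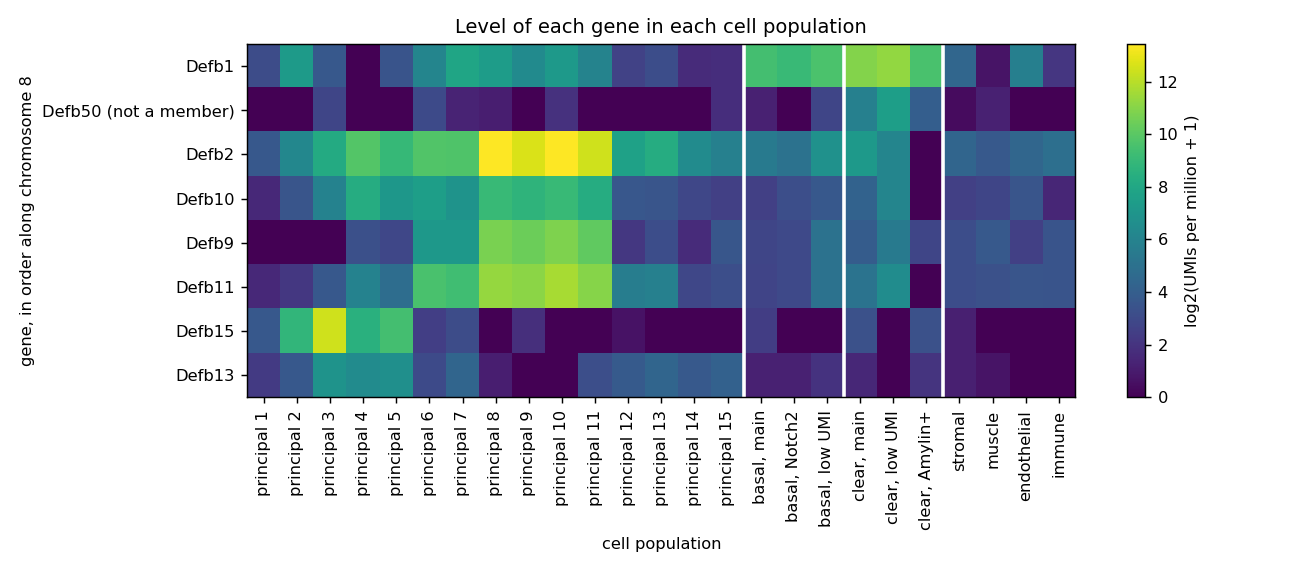
Level of the 7 members and of the neighbor *Defb50* (rows, in order along chromosome 8) in 15 principal subclusters, 3 basal, 3 clear and 4 other cell populations (columns), as log2(UPM + 1). *Defb1* and *Defb50* are highest in clear cells, *Defb2* in principal 8, *Defb10*, *Defb9* and *Defb11* in principal 10, and *Defb15* in principal 3.

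Outside principal cells, the genes that peaked in the cauda were lower in that library. *Defb2* had 9590 UPM in principal cells, 119 UPM in clear cells, 108 UPM in basal cells and 63.9 UPM in stromal cells. *Defb11* had 0.272 UMIs per UMI of *Defb2* in these principal cells (0.264 to 0.281), 0.233 in basal cells (0.143 to 0.366) and 0.347 in stromal cells (0.213 to 0.548). In clear cells it had 0.130 (0.0572 to 0.262), but its 9 UMIs there lay in 2 of 105 cells and the 69 of *Defb2* in 10. The interval does not cover such variation between cells, so no difference from principal cells is read from it. *Defb9* had 0.169 (0.162 to 0.176), 0.194 (0.114 to 0.316), 0.240 (0.135 to 0.406) and 0.159 (0.0761 to 0.303) in the same order, and these intervals overlapped. *Defb10* had 0 UMIs in the basal cells, beside 103 of *Defb2*, and 9 in the clear cells, beside 69. Whether these UMIs came from ambient RNA was not tested; the authors' removal of ambient RNA is already in the counts.

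In the vas deferens, *Defb2* was at 541 UPM in clear cells (429 to 672) and 433 UPM in principal cells (414 to 452). Among the cells of that library 1 member, *Defb1*, was called, and the share of all genes called there was not counted. The 81 UMIs of *Defb2* came from 5 of the 38 clear cells of that library, 67 of them from 2 cells. The summed principal markers in these 38 cells were at 6588 UPM, against 2033 UPM to 2519 UPM in the clear cells of the other libraries, the summed clear markers were at 4145 UPM against 8730 UPM to 9468 UPM, and 7 of the cells were called doublets. Without called doublets *Defb2* had 704 UPM in the clear cells that remained. The part of these values in the result was not tested.

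In clear cells, *Defb1* was at 1177 UPM in the caput (1050 to 1315), 1004 UPM in the corpus (916 to 1100), 2834 UPM in the cauda (2699 to 2975) and 614 UPM in the vas deferens (495 to 753). The cauda was highest, and the caput was 1.17-fold above the corpus (1.01 to 1.35). In the main clear cell population alone, the caput and corpus did not differ beyond counting error, at a ratio of 1.16 (0.963 to 1.40). In basal cells, the values were 1392 UPM in the caput (1331 to 1455), 598 UPM in the corpus (568 to 629), 536 UPM in the cauda (491 to 585) and 118 UPM in the vas deferens (101 to 138). Here the caput was highest. The level in the cauda was 2.41 times that in the caput for clear cells (2.13 to 2.73) and 0.385 times that in the caput for basal cells (0.349 to 0.425).

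Taken over all cells of a type, the order of the types therefore differed between libraries. Clear cells had 0.846 times the level of basal cells in the caput (0.748 to 0.953), 1.68 times in the corpus (1.51 to 1.86), 5.28 times in the cauda (4.78 to 5.85) and 5.19 times in the vas deferens (3.97 to 6.74). Within the main clear cell population alone, the cauda was 1.93-fold above the caput (1.65 to 2.26), and within the main basal population the ratio was 0.349 (0.312 to 0.390). The low-UMI basal cells had 1575 UPM in the caput (1357 to 1818) and 407 UPM in the cauda (222 to 682). The *Notch2*-high basal cells did not show this order, with 489 UPM in the caput (337 to 687, 17 cells) and 762 UPM in the cauda (627 to 918, 31 cells). In the caput, where 39 of 73 clear cells were Amylin-positive, the main clear cells had 1438 UPM (1234 to 1666). These 177 UMIs lay in 15 of 28 cells, with 26.6% of them in 1 cell. The main basal cells there had 1431 UPM (1365 to 1500). The intervals do not cover variation between cells, so no order of the main populations in the caput is read from these values. Principal cells were lower than both types in each library, at 81.8 UPM in the caput (68.9 to 96.5), 123 UPM in the corpus (106 to 143), 143 UPM in the cauda (125 to 161) and 8.33 UPM in the vas deferens (5.92 to 11.4).

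**Figure D2:**
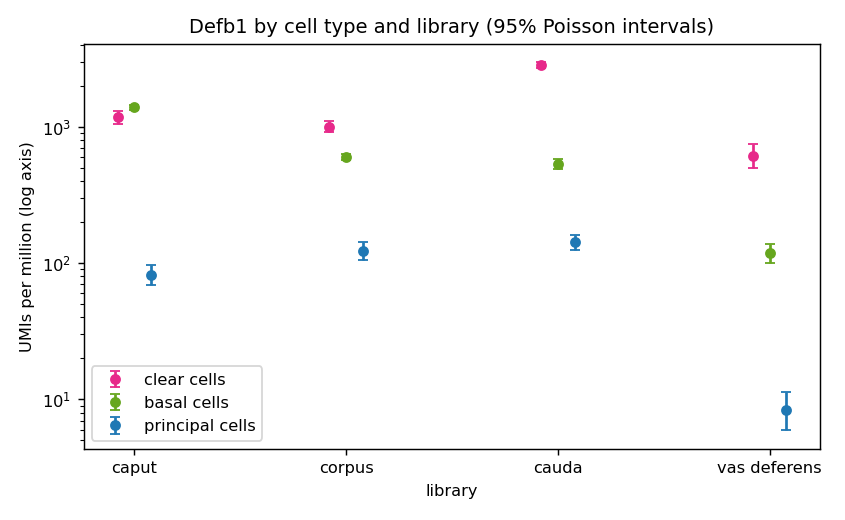
Level of *Defb1* (UPM, log axis) in clear, basal and principal cells of the 4 libraries, with exact Poisson 95% intervals. Clear cells peak in the cauda at 2834 UPM, whereas basal cells peak in the caput at 1392 UPM.

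The populations of clear cells differed as well. The main clear cells had 1981 UPM (1898 to 2066), the low-UMI clear cells 2405 UPM (1967 to 2911), and the Amylin-positive clear cells 771 UPM (679 to 872). The first 2 did not differ beyond counting error, at a ratio of 1.21 (0.989 to 1.48). In the low-UMI clear cells, however, the 105 UMIs lay in 14 of 54 cells, with 27.6% of them in 1 cell. Of these cells 20.4% came from the cauda, against 43.5% of the main clear cells, and this ratio was not repeated by library. The main clear cells were 2.57-fold above the Amylin-positive cells (2.26 to 2.94). As the Amylin-positive cells came from the caput and corpus only, the comparison was repeated in those libraries, where the ratio was 1.69 (1.45 to 1.97).

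To compare cells at 1 depth, each cell was thinned to 1000 UMIs and shallower cells were left out. With 110 of 348 clear cells, 257 of 1412 basal cells and 2062 of 3956 principal cells left out, *Defb1* was detected in 60.1% of clear cells (53.6% to 66.4%, Clopper-Pearson), 32.2% of basal cells (29.5% to 35.0%) and 4.54% of principal cells (3.65% to 5.58%). Stromal cells gave a background of 0.649% (0.324% to 1.16%). Median depths before thinning were 4430, 4333, 934.5 and 2716.5 UMIs in clear, basal, principal and stromal cells, and without thinning 188 clear, 643 basal, 214 principal and 34 stromal cells had a UMI. By library, 83.7% of the clear cells of the cauda (74.5% to 90.6%, 92 cells) held *Defb1* against 39.5% of those of the caput (25.0% to 55.6%, 43 cells).

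Among the main clear cells with at least 1000 UMIs, the 25th, 50th and 75th percentiles of *Defb1* lay at 316, 1517 and 2905 UPM. In the main basal cells the median was 272 UPM. Of the other types, the endothelial cells of the caput reached 268 UPM of *Defb1*, but 31 of their 38 UMIs lay in 2 of 50 cells. The stromal cells of the cauda had 89.5 UPM, with 38 of 105 UMIs in 1 cell. In these groups the summed clear markers were at 14.1 UPM and 6.82 UPM, and the summed basal markers were at 339 UPM and 12.8 UPM, where endothelial cells of the other libraries had 189 to 409 UPM and stromal cells 12.7 to 47.8 UPM of the basal markers. One of the basal markers, *Itga6*, was itself highest in endothelial cells, at 268 UPM over all libraries against 245 UPM in basal cells. The part of the summed markers in these values was not tested.

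*Defb2* was detected at 134 UPM in the caput (117 to 152), 704 UPM in the corpus (661 to 749), 9590 UPM in the cauda (9445 to 9736) and 433 UPM in the vas deferens (414 to 452). It was the 11th gene by level in the principal cells of the cauda, where its level was 13.6-fold above the corpus (12.8 to 14.5). The 4 intervals did not overlap.

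*Defb9* had 0 UMIs in the principal cells of the caput, which allows up to 1.74 UPM, 89.5 UPM in the corpus (74.6 to 107), 1619 UPM in the cauda (1560 to 1680) and 54.7 UPM in the vas deferens (48.2 to 61.8). The cauda was 18.1-fold above the corpus (15.1 to 21.8). *Defb11* was at 5.80 UPM in the caput (2.78 to 10.7), 486 UPM in the corpus (450 to 523), 2612 UPM in the cauda (2537 to 2689) and 127 UPM in the vas deferens (117 to 138), with a ratio of 5.38 between cauda and corpus (4.96 to 5.84). *Defb10* was at 31.9 UPM in the caput (24.0 to 41.5), 156 UPM in the corpus (137 to 178), 467 UPM in the cauda (435 to 500) and 31.6 UPM in the vas deferens (26.7 to 37.1). Its cauda level was 2.98-fold above the corpus (2.57 to 3.48), and its caput and vas deferens levels did not differ beyond counting error.

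*Defb15* showed the opposite order. It was at 941 UPM in the caput (896 to 988) and 69.8 UPM in the corpus (56.7 to 85.0), a ratio of 13.5 (11.01 to 16.7), and had 1 UMI each in the cauda and the vas deferens, at 0.575 UPM (0.0146 to 3.20) and 0.214 UPM (0.00541 to 1.19). *Defb13* was low in each library, at 37.1 UPM in the caput (28.6 to 47.4), 29.6 UPM in the corpus (21.3 to 40.01), 1.15 UPM in the cauda (0.139 to 4.15) and 15.8 UPM in the vas deferens (12.4 to 19.8). Its caput and corpus levels did not differ beyond counting error, at a ratio of 1.25 (0.837 to 1.90), and the cauda was lowest. For *Defb1* in principal cells, the cauda and corpus did not differ either, at a ratio of 1.16 (0.949 to 1.41).

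In this comparison 5 members were highest in the cauda and 2 in the caput. The rule called 4 of the 7, where it called 6.61% of the 9122 genes tested for any library. *Defb2*, *Defb9* and *Defb11* were called for the cauda, where 0.614% of genes were called, and *Defb15* for the caput, where 2.97% were called. At an 8-fold rule *Defb11* was no longer called, and at a 2-fold rule *Defb10* was.

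**Figure D3:**
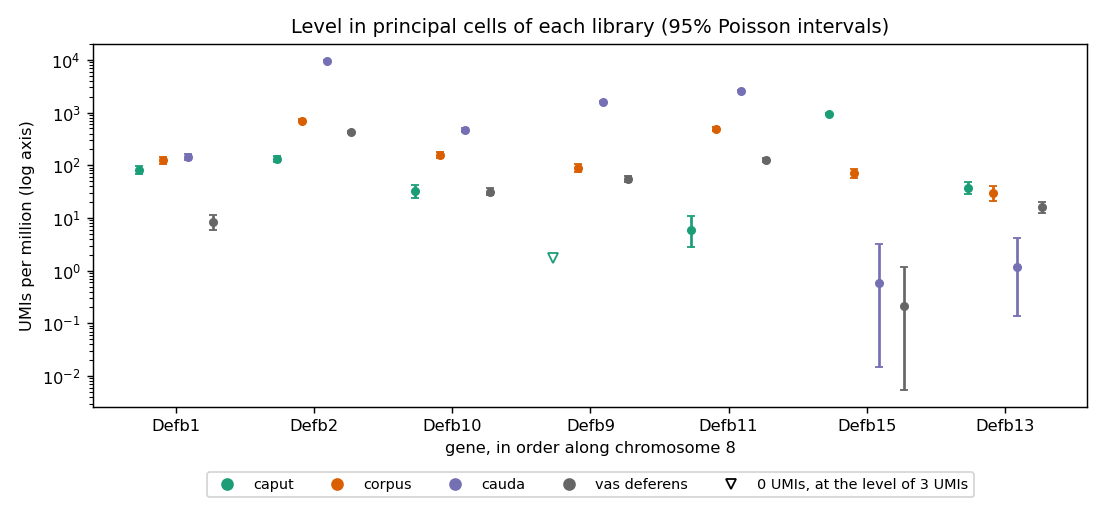
Level of each member (UPM, log axis) in the principal cells of the 4 libraries, with exact Poisson 95% intervals, in order along chromosome 8. An open triangle marks 0 UMIs, drawn at the level of 3 UMIs. *Defb2*, *Defb10*, *Defb9* and *Defb11* are highest in the cauda, *Defb15* in the caput at 941 UPM.

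The shares of cells followed the levels. In the principal cells of the cauda thinned to 1000 UMIs, 433 cells after 498 shallower ones were left out, *Defb2* was detected in 96.1%, *Defb11* in 79.7%, *Defb9* in 68.6%, *Defb10* in 30.3%, and *Defb15* and *Defb13* in none (0 of 433, an upper limit of 0.693%). The stromal cells of the same library, at a median depth of 3927 against 889 UMIs before thinning, had *Defb2* and *Defb11* in 2.60%, *Defb9* in 1.30% and *Defb10* in 0.433%. In the caput, 19.3% of principal cells held *Defb15* and 10.8% held *Defb2*, against 0 of 186 stromal cells for *Defb15* (up to 1.61%) and 0.538% for *Defb2*. Even in the library where it was highest, *Defb15* was thus found in a minority of principal cells.

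In the vas deferens, most of the signal of the cauda genes came from few cells. Of the 1360 principal cells of that library, 151 fell into principal 1 to 11, where most cells came from the epididymis (100 of the 151 in principal 11), and 1209 fell into principal 12 to 15. The 151 cells had *Defb2* at 4240 UPM (4000 to 4490), *Defb11* at 1561 UPM (1417 to 1716) and *Defb9* at 831 UPM (727 to 946). The 1209 cells had *Defb2* at 195 UPM (182 to 208), *Defb11* at 37.4 UPM (31.9 to 43.6) and *Defb9* at 6.13 UPM (4.04 to 8.91). By contrast, *Defb13* was similar in both, at 18.2 UPM (5.89 to 42.4) and 15.7 UPM (12.2 to 19.8). Whether the 151 cells came from tissue at the border with the cauda was not tested.

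The 15 subclusters run roughly from caput (principal 1 to 3, caput only) over corpus (principal 4 to 7) and cauda (principal 8 to 11) to vas deferens (principal 12 to 15). *Defb2* was at 11030 UPM in principal 8 (10806 to 11256) and 10794 UPM in principal 10 (10454 to 11142), which did not differ beyond counting error, at a ratio of 1.02 (0.984 to 1.06). Principal 9 (6408 UPM) and principal 11 (5603 UPM) came next, and no other subcluster was above 922 UPM. In principal 8 it was the 9th gene by level. *Defb10* (532 UPM), *Defb9* (1821 UPM) and *Defb11* (3254 UPM) were highest in principal 10, but only *Defb11* differed there from principal 8, by 1.28-fold (1.19 to 1.38).

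*Defb15* reached 5683 UPM in principal 3 (5327 to 6057), where it was the 19th gene by level, followed by principal 5 with 689 UPM (617 to 767), principal 2 with 457 UPM (413 to 505) and principal 4 with 374 UPM (271 to 504). Principal 1, also of the caput, had 11.8 UPM (4.32 to 25.6). The ratio of principal 3 to principal 5 was 8.24 (7.27 to 9.37), and *Defb15* was the 1 member called for a subcluster, where 0.05% of the 5996 genes tested were called for principal 3 and 0.2% for any subcluster. Principal 5 mixed 67 cells of the caput with *Defb15* at 1445 UPM (1274 to 1632) and 172 cells of the corpus with 246 UPM (193 to 308). Of the caput cells 13 held it, and 1 of them had 123 of the 259 UMIs, without which the level was 776 UPM (651 to 918). Of the corpus cells 42 held it. Without the corpus library, principal 3 was 1.98 log2 units above the next subcluster, under the 4-fold rule. With that 1 cell also left out, an alternative chosen after seeing the data, it was 2.33 log2 units above the next, and called. Without the caput library no member was called, and the share of all genes called was not counted there.

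Within these subclusters *Defb15* was unevenly spread. Of the thinned cells of principal 3, 34 of 45 (75.6%, 60.5% to 87.1%) held it, with the median cell at 5144 UPM and the highest at 26364 UPM. In principal 2, 17 of 168 cells (10.1%) held it and the highest 10% of all its cells had 94.6% of its UMIs, yet 1 cell reached 21125 UPM. In principal 5, 22 of 105 cells (21.0%) held it, and the highest 10% of cells had 88.9% of its UMIs. In principal 3 the highest 10% of cells had 63.1% of the UMIs of *Defb15*. By comparison, the highest 10% of cells of principal 8 had 51.2% of the UMIs of *Defb2*. Among the cells of principal 8 with at least 1000 UMIs, *Defb2* ranged from 3265 UPM at the 5th percentile to 21781 UPM at the 95th.

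*Defb13* was highest in principal 3 (120 UPM, 73.5 to 186), principal 5 (103 UPM, 76.6 to 136) and principal 4 (86.9 UPM, 41.7 to 160), which did not differ beyond counting error. It thus shared the caput side with *Defb15*, but in other proportions. There were 47.3 UMIs of *Defb15* per UMI of *Defb13* in principal 3 (30.4 to 77.7), 6.68 in principal 5 (4.95 to 9.18) and 4.30 in principal 4 (2.13 to 9.60). In principal 12, 22 UMIs of *Defb13* stood beside 1 of *Defb15*, and in principal 13 there were 28 and 0. In principal 8, 9, 10 and 11, where the cauda genes peaked, *Defb13* had 1, 0, 0 and 3 UMIs.

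The 4 cauda genes also differed in their proportions to one another. *Defb11* had 0.865 UMIs per UMI of *Defb2* in principal 6 (0.743 to 1.01) and 0.747 in principal 7 (0.656 to 0.851), both of the corpus, against 0.231 in principal 8 (0.220 to 0.242) and 0.301 in principal 10 (0.282 to 0.322). In principal 5 it was 0.0531 (0.0279 to 0.0924). From principal 4 to principal 8, *Defb10* fell in proportion. It had 0.349 in principal 4 (0.233 to 0.512) and 0.273 in principal 5 (0.206 to 0.360), whose intervals overlapped. Principal 6 had 0.213 (0.165 to 0.272) and principal 8 had 0.0478 (0.0433 to 0.0525). In principal 2 and 3 the ratio was 0.148 (0.0644 to 0.299) and 0.204 (0.0922 to 0.408), on 9 and 10 UMIs of *Defb10*. *Defb9* held between 0.153 and 0.216 UMIs per UMI of *Defb2* from principal 6 to principal 11, but 0.0122 in principal 5 (0.00251 to 0.0362), 0.0167 in principal 12 (0.00609 to 0.0367) and 0.0244 in principal 13 (0.0121 to 0.0442). Thus *Defb2* and *Defb10* were detected in subclusters of the caput and corpus where *Defb9* and *Defb11* had few UMIs. In principal 4, for example, *Defb2* had 106 UMIs and *Defb10* had 37, beside 7 of *Defb11* and 1 of *Defb9*.

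**Figure D4:**
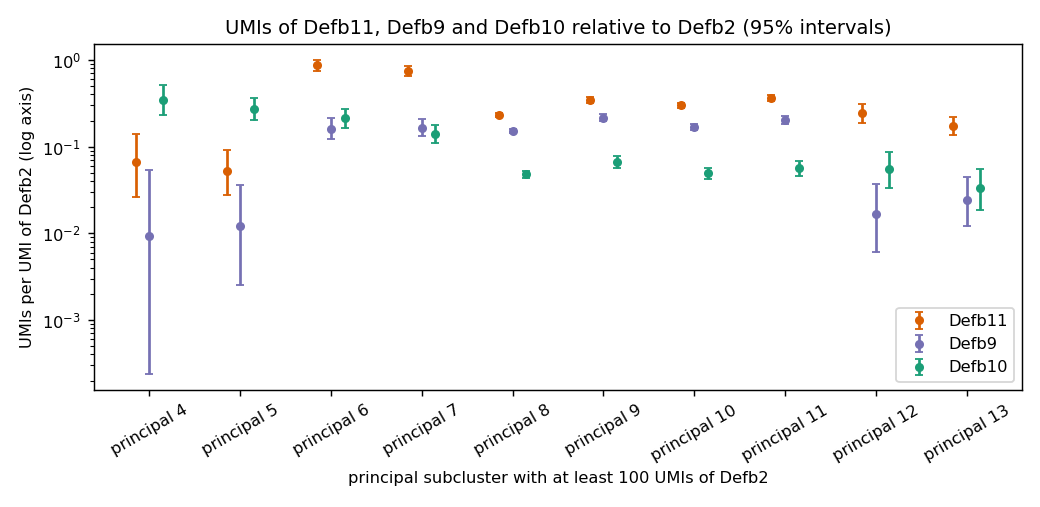
UMIs of *Defb11*, *Defb9* and *Defb10* per UMI of *Defb2* (log axis) in the principal subclusters with at least 100 UMIs of *Defb2*, with exact 95% intervals. *Defb11* is near 0.865 in principal 6 and 0.231 in principal 8, *Defb9* drops in principal 12 and 13, and *Defb10* is highest in principal 4.

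*Defb1* in principal cells had a pattern of its own. It was highest in principal 7 at 238 UPM (201 to 278), followed by principal 8 at 172 UPM (145 to 202), principal 2 at 156 UPM (131 to 185) and principal 10 at 150 UPM (112 to 196), and principal 4 had 0 UMIs of it (up to 26.1 UPM). In principal 12 to 15 it was at 2.11 UPM to 7.87 UPM.

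Single cells of principal 8 mostly held several of the 4 cauda genes. There, of 190 cells thinned to 1000 UMIs, 46 (24.2%) held all of *Defb2*, *Defb9*, *Defb10* and *Defb11*, 86 (45.3%) held 3 of them, and 2 held none. *Defb2* and *Defb11* were detected together in 145 cells, where the product of their shares gives 142.4, and *Defb9* and *Defb11* in 114, where it gives 107.5. Principal 11 pooled unlike cells, 141 of the cauda with *Defb2* at 6805 UPM (6488 to 7133) and 100 of the vas deferens with 2796 UPM (2487 to 3133), and 9 of its 93 thinned cells (9.68%) held none of the 4 genes. These counts describe the cells of these libraries and were not tested. In the caput and corpus cells of principal 5, *Defb15* and *Defb13* were detected in 22 and 8 of 105 cells and never in the same one, where the product gives 1.68. In principal 3, 2 of 45 cells held both, where the product gives 1.51, and 0 held *Defb13* alone. With so few cells, no pattern of this pair is read from either count.

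**Figure D5:**
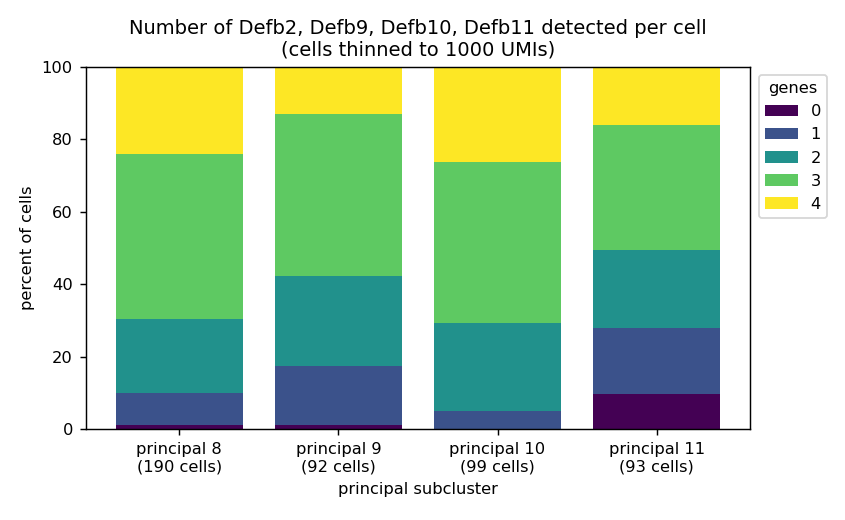
Percent of cells of principal 8 to 11 in which 0, 1, 2, 3 or 4 of *Defb2*, *Defb9*, *Defb10* and *Defb11* were detected after thinning to 1000 UMIs (bars add up to 100%). In principal 8, 45.3% of cells held 3 of the genes and 24.2% held 4.

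Likeness was measured as the Pearson correlation of log2(UPM + 1) over the 15 principal subclusters among 9257 genes with at least 50 UMIs in principal cells. The 15 points share 4 libraries, and the values are descriptions. The pattern nearest to that of *Defb2* was that of *Defb11* (0.94), followed by *Defb10* (0.93) and *Spinkl* (0.93). *Defb9* was nearest to *Pnmt*, which encodes the enzyme that makes epinephrine (0.98), *Cbs*, an enzyme of homocysteine metabolism (0.98), and *Ltf*, the iron-binding protein lactoferrin (0.97). *Defb11* was nearest to *Pnmt* (0.97), *Defb9* (0.96) and the cytochrome P450 gene *Cyp4a12a* (0.96), and *Defb10* to *Cpne5* (0.95), *Cyb561* (0.94) and *Defb2* (0.93).

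*Defb15* was nearest to *Rnase13* (0.96), the disulfide isomerase gene *Agr2* (0.96) and *Defb12* (0.96), a beta-defensin of the other run on chromosome 8. *Defb13* was nearest to *Defb30* (0.91), *Zfp40* (0.88) and the cadherin gene *Cdh3* (0.88). For *Defb1*, the nearest were *Myef2* (0.93), the transcription factor gene *Cebpa* (0.92) and the retinaldehyde dehydrogenase gene *Aldh1a1* (0.92). Between members, the coefficients were 0.79 to 0.96 among *Defb2*, *Defb10*, *Defb9* and *Defb11*, 0.67 between *Defb15* and *Defb13*, and from -0.66 to 0.04 between these groups.

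Summed over the 7 members, principal cells had 1232 UPM in the caput, 1658 UPM in the corpus, 14432 UPM in the cauda and 670 UPM in the vas deferens. The members made up 1.28% of all beta-defensin UMIs in the caput (1.23% to 1.34%), 3.96% in the corpus (3.80% to 4.12%), 36.5% in the cauda (36.1% to 36.8%) and 19.2% in the vas deferens (18.6% to 19.8%). *Defb2* alone gave 66.4% of the members' UMIs in the cauda and 10.9% in the caput.

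Of the 31 other beta-defensins in the matrix, 25 reached 20 UMIs in principal cells of some library. The caput was the highest library for 10 of these, the corpus for 11 and the cauda for 4, against 2, 0 and 5 of the members. No test of this difference was made. The highest others were *Defb20* (45627 UPM) and *Defb47* (21291 UPM) in the caput, *Defb28* (11969 UPM) and *Defb22* (7585 UPM) in the corpus, *Defb28* (19021 UPM) and *Defb43* (2965 UPM) in the cauda, and *Defb43* (1282 UPM) and *Defb42* (767 UPM) in the vas deferens. In the cauda, *Defb2* was thus below *Defb28* and above *Defb43*. By cell type, 25 of 26 others with at least 20 UMIs in their highest type were highest in principal cells, the exception being *Defb50*, and none was highest in basal cells.

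Of 16 other secreted antimicrobial genes, 13 had at least 20 UMIs in a cell type, of which 8 were highest in principal cells and 3 in basal cells. The rule called 8 of them, against 11.8% of all genes tested. The highest were *Spag11b*, a defensin-like gene (8004 UPM in principal cells), *Wfdc15b*, a whey acidic protein gene (3822 UPM in principal cells), *Lcn2*, which binds bacterial siderophores (3482 UPM in basal cells), the lysozyme gene *Lyz2* (2563 UPM in immune cells), *Spag11a* (1582 UPM in principal cells) and *Ltf* (503 UPM in principal cells). No gene of this list was highest in clear cells, the type in which *Defb1* was highest. Of all genes tested 1.49% were called for clear cells, so this is not read as a contrast with *Defb1*. Of 6 receptors for defensins or microbial products, 5 had a row in the matrix and 3 had at least 20 UMIs, 2 of them highest in immune cells and 1 in endothelial cells. Of 8 regulators of epididymal or innate expression, 3 were highest in principal cells and 0 were called.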

How the data were processed

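The deposited counts are whole UMIs per gene and cell. The authors aligned reads to mm10 (GRCm38) with HISAT2 2.0.4, counted UMIs on RefSeq genes with ESAT, leaving out multiply aligned reads, kept cells with 350 to 15000 UMIs, and subtracted ambient RNA with a modified SoupX. Principal subclusters carry the study's numbers, matched to the deposited names by their numbers of cells. From these counts, UMIs were summed over groups of cells. Intervals were exact Poisson (levels), exact conditional binomial (ratios) and Clopper-Pearson (shares), all 95%. In total 178 cells (2.00%) were called doublets from simulated doublets (1500 variable genes, 30 components, an assumed rate of 0.8% per 1000 cells) and were kept. The calling rule was tested on simulated data. The members and lists were chosen with earlier results of these data known. Named genes are the members, their neighbors in the matrix, the 3 nearest patterns per member, the 2 highest other beta-defensins per library and the 6 highest listed antimicrobial genes. Alternatives covered depth, thresholds, doublets, denominators, means over cells and left-out libraries. The scripts ran in Python 3.11.15 with scipy 1.17.1, numpy 2.4.6, scikit-learn 1.9.0, pandas 2.3.3, Biopython 1.88 and matplotlib 3.10.9.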

Additional observations from a re-analysis of the deposited data

Results flagged for a closer look

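Taken over all cells of a type, *Defb1* differed between the caput and the cauda in opposite directions in the 2 cell types that held most of it. The level in the cauda was 2.41 times that in the caput in clear cells (2834 against 1177 UPM) and 0.385 times that in the caput in basal cells (536 against 1392 UPM). With 1 library per region the difference between the types was not tested. Without called doublets the ratios were 2.44 and 0.390. The *Notch2*-high basal cells alone did not show the order of all basal cells, with 762 UPM in the cauda (627 to 918) and 489 UPM in the caput (337 to 687).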

How the results depend on the processing

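The count of members called by cell type (5) ranged from 3 to 5 with 1 library left out, stayed 5 as a mean over cells with *Defb10* losing its call (1.79 on the log2 scale) and *Defb13* gaining one (2.40), and was 2 in caput cells alone, 3 in corpus cells alone and 1 in vas deferens cells alone; the cause was not tested. In vas deferens cells alone, the log2 ratio of principal cells to the highest other type was -0.32 for *Defb2* and -0.34 for *Defb10*. It was also -0.34 for *Defb13*, there against the level of 3 UMIs, as clear cells had 13.4 and principal cells 15.8 UPM. The count by subcluster (1) ranged from 0 to 1 with 1 library left out, and the count by library (4) was within 1.5 times under each alternative. The share of all genes called was not counted under the alternatives, so changes in these counts are not read as results about the members. Of 231 ratios of single members under 16 alternatives, 211 kept their side of the rule, 11 lost a call with the same direction, 7 gained one, and 2 lost a call and turned. In all, 13 ratios fell below 0, 11 of them of members not called for that group. In 8 of the 13 another group was measured higher, and in 5 none was, the ratio being below 0 against the level of 3 UMIs in a small group.

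Shares of cells moved with the depth compared and with the cells kept, as cells below each depth were left out. Thinned to 500 UMIs, they were 28.2% (*Defb1*, low-UMI clear cells, 68.8% at 1000), 91.0% (*Defb2*, principal 8), 20.4% (*Defb10*, principal 10), 51.1% (*Defb9*, principal 10) and 66.4% (*Defb11*, principal 10). Not thinned, they were 25.9% (*Defb1*), 75.2% (*Defb2*), 57.4% (*Defb9*), 63.4% (*Defb11*) and 46.4% (*Defb15*, principal 3). At 2 UMIs or more, they were 10.1% (*Defb10*), 48.5% (*Defb9*) and 77.8% (*Defb11*). Thinning to 1000 UMIs kept 190 of the 516 cells of principal 8, whereas the shares not thinned used all cells. The 54 low-UMI clear cells had a median of 698.5 UMIs, so many of them were left out at 1000. No paired analysis was possible because each region has 1 library and no comparison comes from a test.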
